A study of Mus musculus with 8 samples.

Results

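Matrix metalloproteases (MMPs) and their inhibitors, the tissue inhibitors of metalloproteases (TIMPs), were followed in a mouse cell line after silencing of Bnc2. The genes examined were the proteases Mmp2, Mmp3, Mmp9, Mmp13, Mmp14 and Mmp19 and the inhibitors Timp1, Timp2, Timp3 and Timp4. They were chosen by symbol, and all 10 were measured, among 22180 genes in all, each by 1 probe set that carried no other symbol. The siBNC2 cells were EMS404 cells, a mouse line taken by the study to stand for myofibroblastic hepatic stellate cells, which received by lipofection 20 nM siRNA (small interfering RNA) targeting Bnc2, a zinc finger transcription factor. The siCTRL cells were EMS404 cells that received 20 nM non-targeting siRNA. RNA of both groups was collected 48 h after transfection, and each of 4 siBNC2 and 4 siCTRL samples was hybridised to its own array. All values come from 1 cultured line, whose replicates the study calls independent, and p-values measure the spread between these samples.

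MMPs are zinc-dependent proteases that cut collagens and other proteins of the extracellular matrix. Most are secreted as inactive precursors that other proteases activate, whereas membrane-type MMPs such as MMP14 act at the cell surface. TIMPs bind the active site and block it, and TIMP2 has a double role, since it inhibits MMP14 yet also links the MMP2 precursor to MMP14 at the surface, where MMP2 is activated. In the fibrotic liver, activated stellate cells are a source of both proteases and inhibitors, and TIMP1 in particular is known for restraining the breakdown of scar matrix.

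The proximal promoters are shown for the members with the widest spread between arrays (Mmp13 and Timp1), for Mmp14, which had the smallest p of the members, and for Mmp3, which shares its motif with Mmp13. The sequences are from RefSeq (GRCm38.p6), plus strand, and each ends on the base before the annotated start. Capitals mark a match to the AP-1 motif TGANTCA in Mmp13 and Mmp3 and to the Sp1 motif GGGCGG, read on either strand, in Mmp14 and Timp1. Both motifs were chosen after expression values and some promoter letters had been seen.
Mmp13, chr9:7272394-7272513: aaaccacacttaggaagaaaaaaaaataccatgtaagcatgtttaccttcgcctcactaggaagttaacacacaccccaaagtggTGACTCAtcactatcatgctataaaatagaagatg
Mmp3, chr9:7445702-7445821: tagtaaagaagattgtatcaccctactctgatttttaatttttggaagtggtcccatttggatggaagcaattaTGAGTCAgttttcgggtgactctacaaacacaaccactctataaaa
Mmp14, chr14:54431478-54431597: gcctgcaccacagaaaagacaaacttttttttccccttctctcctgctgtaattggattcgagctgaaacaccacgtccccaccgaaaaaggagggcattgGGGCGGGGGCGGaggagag
Timp1, chrX:20870046-20870165: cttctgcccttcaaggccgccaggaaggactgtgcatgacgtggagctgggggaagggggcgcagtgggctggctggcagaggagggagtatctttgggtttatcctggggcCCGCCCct
The AP-1 match began at position −35 in Mmp13 and −46 in Mmp3, counted back from the annotated start. In Mmp14, 2 adjacent Sp1 matches began at −19 and −13, and in Timp1 the match, on the other strand, began at −8. Promoter windows of 300 bases were at hand for 7 of the 10 members, without Mmp2, Mmp9 and Mmp19. The AP-1 motif lay in the windows of Mmp3 and Mmp13 and in 7.81% of all 32851 windows. The Sp1 motif, which lay in 35.7% of all windows, was found for Mmp14, Timp1, Timp2 and Timp3. The window of Timp4 held neither motif. A match is a run of letters and does not show that a factor binds there.

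As a check of the labels, Bnc2 read 7.07, 6.78, 6.72 and 8.18 on the siBNC2 arrays, against 8.26, 8.41, 8.37 and 9.03 on the siCTRL arrays, on the log2 scale and in replicate order, as are all array values given here. The groups did not overlap, and the difference, siBNC2 minus siCTRL, was −1.33 ± 0.31 (SE). By exact permutation, two-sided, p was 0.0286, below which 4 against 4 arrays cannot go. Of 9 stellate cell and myofibroblast markers, 6 were above the 40th percentile of mean level of all genes, among them Acta2, Pdgfra, Pdgfrb and Vim, while Lrat, Reln and Thy1 lay below it and are called dim. Of 19 markers of hepatocytes, cholangiocytes, macrophages, neutrophils and endothelial cells, 10 were dim, where 40% of all genes are dim by definition. The brightest of the 19, a macrophage marker, had a mean of 8.78. Past the adjusted p, 0 of the 19 differed, as did 0 of all genes. Array medians lay between 6.45 and 6.50. The arrays numbered 4 stood apart from the other 6. The mean of 7 interferon-induced genes was 9.92 on siBNC2 4 and 9.62 on siCTRL 4, against 12.89 to 14.43 on the others. Member values that moved with these 2 arrays are therefore given with and without them.

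None of the 10 members passed an adjusted p of 0.05 in limma, where 0 of 22180 genes, or 0%, did. The silenced Bnc2 did not pass either, so a member that did not pass is not thereby shown to be unchanged. Of the members, 6 were lower in siBNC2 and 4 higher, and their median difference was −0.02, beside 0.01 over all genes, of which 48.1% were lower. The size of the difference was under 0.25 for 8 of the 10, and the exceptions were Mmp13 and Mmp14. At an unadjusted p under 0.05 there was 1 member, Mmp14, where 3.19% of all genes were called. In 0 of 10 members did the 4 siBNC2 arrays lie wholly on one side of the 4 siCTRL arrays, as they did for 2.16% of all genes.

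**Figure D1:**
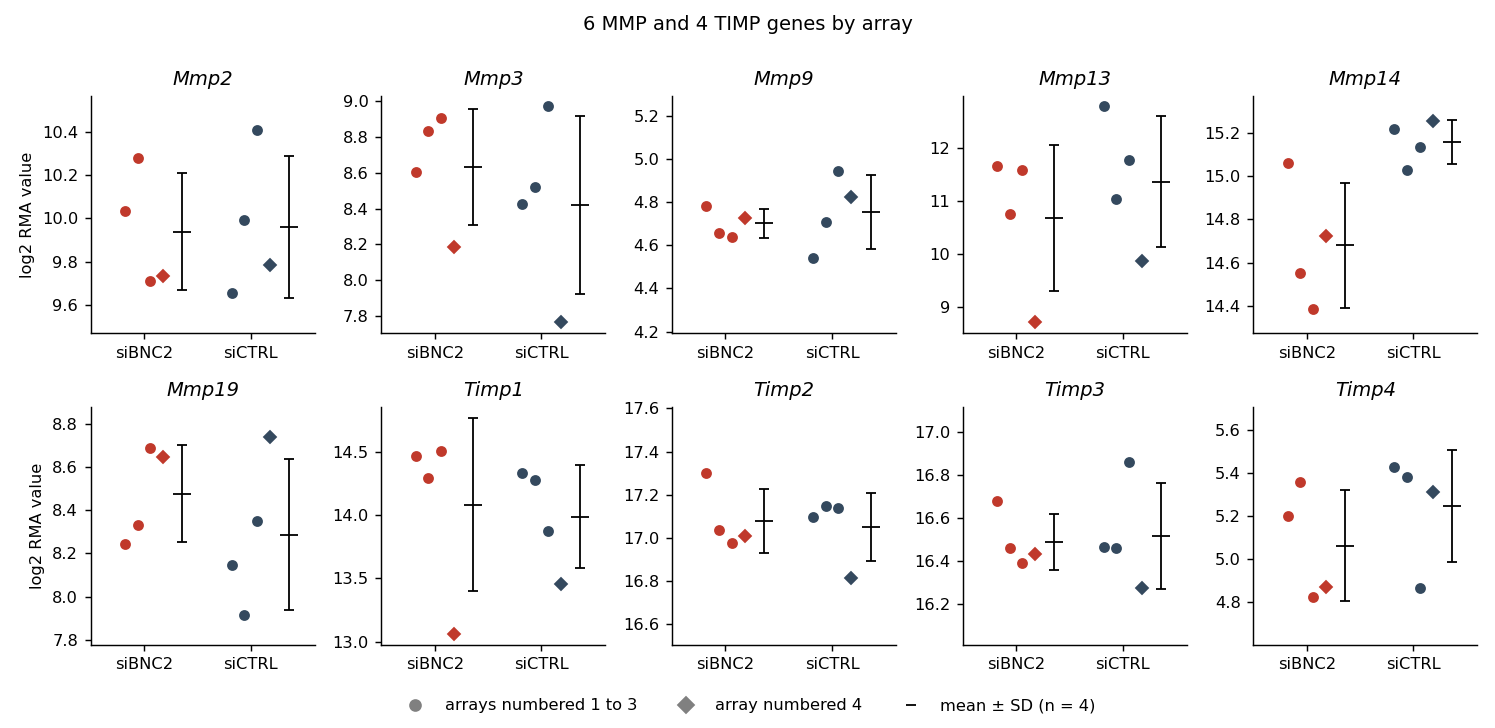
Log2 value of each of the 10 genes (vertical axis, own scale per panel) on the 4 siBNC2 and 4 siCTRL arrays, with diamonds for the arrays numbered 4 and bars for mean ± SD. The siBNC2 arrays of Mmp14 sit at 14.39 to 15.06, against 15.03 to 15.26 in siCTRL, while Mmp13 and Timp1 are lowest on the arrays numbered 4 in both groups.

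Mmp14, the membrane-anchored collagenase that also activates the MMP2 precursor, had a lower mean in siBNC2 but did not pass the adjusted p. It read 15.06, 14.55, 14.39 and 14.72 in siBNC2, against 15.22, 15.03, 15.13 and 15.26 in siCTRL. Of the siBNC2 arrays, 3 of 4 lay below every siCTRL array, and siBNC2 1 overlapped with siCTRL 2 by a small margin. The mean was 14.68 ± 0.29 in siBNC2 and 15.16 ± 0.10 in siCTRL (SD, n = 4 each). This made it 1.39-fold lower in siBNC2, with a 95% interval of the log2 difference from −0.82 to −0.13. The unadjusted p in limma was 0.0114, the adjusted p 1.00 over all genes and the exact permutation p 0.0571. Among all genes, 388, or 1.75%, had a larger difference in size, and 142 had a smaller p. The difference lay between −0.60 and −0.38 when each array was left out in turn, and it was −0.46 without both arrays numbered 4.

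Mmp13, the main interstitial collagenase of rodents, had the widest spread of the proteases. It read 11.66, 10.76, 11.60 and 8.71 in siBNC2, against 12.79, 11.04, 11.78 and 9.86 in siCTRL. The lowest value of each group was on the array numbered 4, and the groups overlapped over most of their range. At every number the siBNC2 array read below the siCTRL array of that number, as also for Mmp14 and the dim Timp4. How many of all genes did so was not counted, and the labels do not say that a number marks a round. The mean was 10.68 ± 1.38 in siBNC2 and 11.37 ± 1.23 in siCTRL (SD, n = 4 each), a difference of −0.69 ± 0.73 (SE) with a 95% interval from −2.32 to 0.95. The exact permutation p, which takes no account of the numbers, was 0.457. The difference was −0.03 without siBNC2 4, −0.21 without siCTRL 1, −1.01 without siBNC2 1, −0.99 without siBNC2 3 and −1.19 without siCTRL 4. Without both arrays numbered 4 it was −0.53.

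The gelatinases cut denatured collagen and the type IV collagen of basement membranes. Mmp2, the gelatinase that mesenchymal cells widely secrete, read 10.04, 10.28, 9.71 and 9.73 in siBNC2, against 9.66, 9.99, 10.41 and 9.78 in siCTRL. Its groups covered nearly the same range, and the difference was −0.02 ± 0.19 (SE), with a 95% interval from −0.45 to 0.41. Mmp9, the gelatinase best known from leukocytes, was dim. It read 4.78, 4.66, 4.64 and 4.73 in siBNC2, against 4.54, 4.71, 4.94 and 4.82 in siCTRL, a difference of −0.05 ± 0.12 (SE). A change of so dim a signal cannot be read closely.

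Mmp3, the stromelysin that cleaves proteoglycans and activates other MMP precursors, read 8.61, 8.84, 8.91 and 8.18 in siBNC2, against 8.42, 8.52, 8.97 and 7.76 in siCTRL. As for Mmp13, both groups were lowest on the array numbered 4. The difference was 0.21 ± 0.25 (SE), with a 95% interval from −0.35 to 0.77, and it was −0.01 without siCTRL 4 and 0.14 without both arrays numbered 4. Mmp19, a protease of basement membrane proteins, read 8.24, 8.33, 8.69 and 8.64 in siBNC2, against 8.14, 7.92, 8.35 and 8.74 in siCTRL. Its groups overlapped, its highest value was on siCTRL 4, and the difference was 0.19 ± 0.19 (SE), with a 95% interval from −0.23 to 0.61.

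Among the inhibitors, Timp1 varied most. It read 14.47, 14.29, 14.50 and 13.06 in siBNC2, against 14.33, 14.28, 13.88 and 13.46 in siCTRL. Again the arrays numbered 4 were lowest, and the other siBNC2 arrays lay close together. The difference was 0.10 ± 0.33 (SE), with a 95% interval from −0.63 to 0.82, and the exact permutation p was 0.771. It was 0.44 without siBNC2 4, −0.08 without siCTRL 4 and 0.26 without both.

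Timp2, the inhibitor that couples MMP14 to the MMP2 precursor, read 17.30, 17.04, 16.98 and 17.01 in siBNC2, against 17.10, 17.15, 17.14 and 16.81 in siCTRL. The difference of 0.03 ± 0.13 (SE) had the narrowest 95% interval of the inhibitors, from −0.26 to 0.32. Timp3, the inhibitor that stays bound to matrix and also blocks ADAM proteases, read 16.68, 16.46, 16.39 and 16.43 in siBNC2, against 16.47, 16.46, 16.86 and 16.28 in siCTRL. Its difference was −0.03 ± 0.15 (SE), with a 95% interval from −0.35 to 0.30. Timp4, which is best known from heart and fat, was dim at 5.20, 5.36, 4.82 and 4.87 in siBNC2, against 5.43, 5.38, 4.86 and 5.31 in siCTRL, a difference of −0.18 ± 0.17 (SE). The intervals of Timp2 and Timp3 both end short of the −0.48 measured for Mmp14. They overlap with the interval of Mmp14, from −0.82 to −0.13, and a difference between these genes was not tested.

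**Figure D2:**
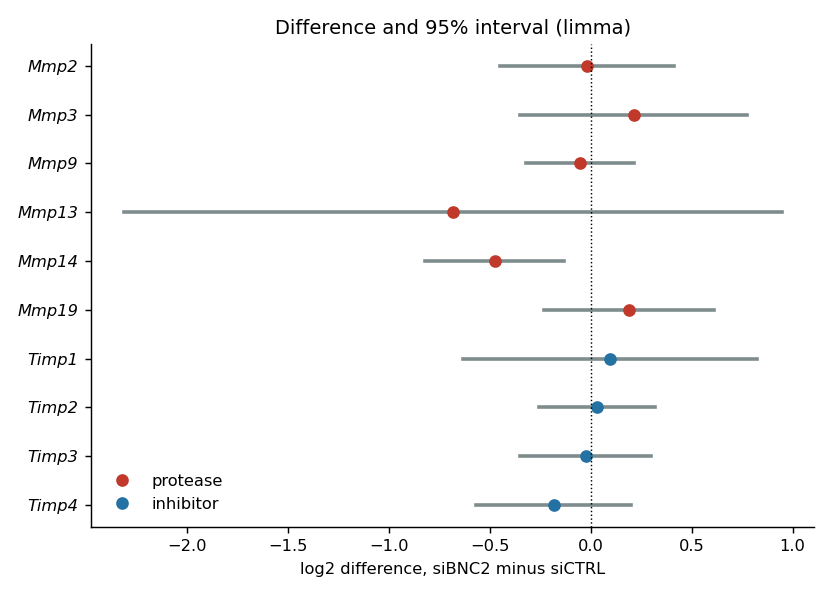
Log2 difference, siBNC2 minus siCTRL, of each of the 10 genes (points, red for proteases and blue for inhibitors) with its 95% interval from limma (bars). The interval of Mmp14, from −0.82 to −0.13, lies below 0, and that of Mmp13 is the widest, from −2.32 to 0.95.

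The protease to inhibitor balance was taken within each array as the mean log2 value of the 6 proteases minus that of the 4 inhibitors. Since signals of different probe sets cannot be set against each other, only its change between groups can be read, not whether proteases or inhibitors prevailed. It read −3.68, −3.72, −3.52 and −3.72 in siBNC2, against −3.54, −3.78, −3.25 and −3.59 in siCTRL. The groups overlapped, and the mean was −3.66 ± 0.10 in siBNC2 and −3.54 ± 0.22 in siCTRL (SD, n = 4 each), a difference of −0.12. It was −0.02 without siCTRL 3 and −0.20 without siCTRL 2. Taken without 1 member it ran between −0.19, without Mmp3, and −0.01, without Mmp13, and without the dim members it was −0.19.

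Of the single pairs, Mmp14 minus Timp2 separated the groups. It read −2.24, −2.49, −2.59 and −2.28 in siBNC2, against −1.88, −2.12, −2.00 and −1.56 in siCTRL. All 4 siBNC2 arrays lay below all 4 siCTRL arrays, with a difference of −0.51 in the means, which was −0.58 to −0.40 when each array was left out and −0.44 without both arrays numbered 4. This pair was 1 of 6 examined, and it is described without a test. Mmp14 alone differed by −0.48 and Timp2 by 0.03, so the difference of the pair was mostly that of Mmp14. How often other pairs of genes separated the groups was not counted. After the arrays were quantile-normalized again the difference of the pair was −0.48 and the groups overlapped slightly. The highest siBNC2 array was then at −2.126 and the lowest siCTRL array at −2.129. Mmp14 minus Timp3 differed by −0.45, and 2 of 4 siBNC2 arrays lay below all siCTRL arrays.

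Mmp13 minus Timp1, which pairs the members with the widest spread, read −2.80, −3.53, −2.91 and −4.36 in siBNC2, against −1.54, −3.24, −2.09 and −3.60 in siCTRL. The difference of −0.78 was −1.11 to −0.42 when each array was left out, and the groups overlapped. The other pairs differed less, with −0.05 for Mmp2 minus Timp2, −0.15 for Mmp9 minus Timp1 and 0.12 for Mmp3 minus Timp1. Leaving out 1 array turned the sign of all of these, with ranges from −0.18 to 0.07, from −0.50 to 0.05 and from −0.07 to 0.34. Without both arrays numbered 4 they were 0.01, −0.30 and −0.12.

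**Figure D3:**
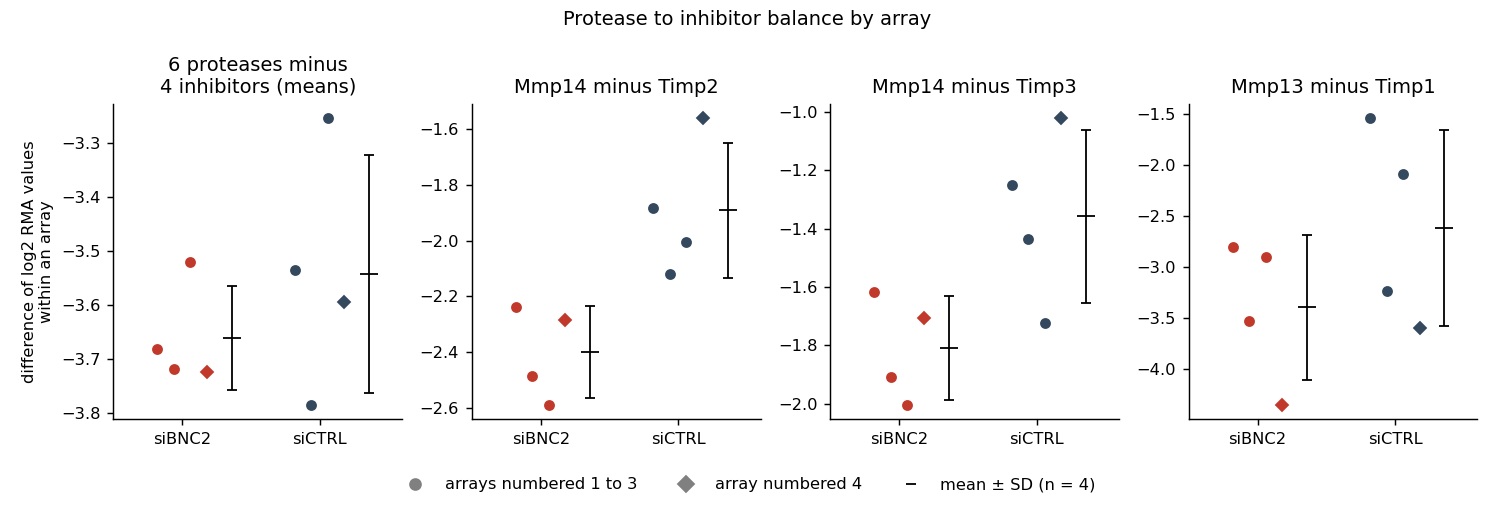
Within-array differences of log2 values (vertical axis, own scale per panel) for the mean of 6 proteases minus the mean of 4 inhibitors and for 3 single pairs, on siBNC2 and siCTRL arrays, with diamonds for the arrays numbered 4 and bars for mean ± SD (n = 4). Mmp14 minus Timp2 lies at −2.59 to −2.24 in siBNC2, against −2.12 to −1.56 in siCTRL, and the other panels overlap. After the arrays were quantile-normalized again, which is not drawn, the groups of this pair overlapped slightly too.

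Mmp3, Mmp13 and Timp1 were lowest on both arrays numbered 4, which is 3 of the 10 members where 7.87% of all genes had this pattern. This count was made after the values had been seen. In the lists below, the pattern was shared by 4 of 10 activating genes and 2 of 16 other MMPs. It was shared by 1 of 7 restraint and clearance genes and 0 of 6 substrate genes, so it was not particular to the members. Of the 7 interferon-induced genes, 6 were also lowest on both arrays numbered 4, all but Ifit3, and the part of that shift in the values of Mmp3, Mmp13 and Timp1 was not tested. Between siBNC2 and siCTRL, 4 of the 7 interferon-induced genes were lower and 3 higher with 0 called, and Ifit3 differed by −0.18 and Irf7 by 0.39. Of the 6 AP-1 factors measured, only 1, Fosl2, was lowest on both arrays numbered 4. It read 12.13 on siBNC2 4 and 12.15 on siCTRL 4, against 12.48 to 13.04 on the other arrays. Whether AP-1 had a part in the pattern was not tested. Mmp2, Mmp9, Mmp14, Mmp19, Timp2, Timp3 and Timp4 did not share the pattern. Mmp14 was highest of its group on siCTRL 4.

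The profile of Mmp13 over the 8 arrays was most like those of Trim30d (Pearson r = 0.98), H2-Q4 (r = 0.97) and Elf1 (r = 0.97), among genes that were not dim. That of Timp1 was most like those of Ier3, Txnl4a and Arfrp1, each with r = 0.99. Without the arrays numbered 4, over 6 arrays, the r values were 0.94, 0.95 and 0.92 for the Mmp13 list and 0.94, 0.93 and 0.89 for the Timp1 list. These genes were picked as the highest over all genes that were not dim, and the values are a description.

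The other members of the protease family showed no common direction. Of 17 other MMPs listed, 16 were measured and Mmp15 was not analysed here. They divided into 8 lower and 8 higher in siBNC2, with 9 dim and 0 called at either the adjusted or the unadjusted p. Mmp11, a stromelysin-like protease of stromal cells, read 7.20, 7.04, 7.43 and 7.63 in siBNC2, against 7.54, 7.50, 7.58 and 8.05 in siCTRL. Its difference was −0.34 ± 0.17 (SE) with an exact permutation p of 0.143, and the array numbered 4 was the highest of each group. Mmp24, a membrane-type MMP, differed by 0.21 ± 0.16 (SE), and Mmp1a, a rodent relative of human interstitial collagenase, differed by −0.22 ± 0.14 (SE) at dim values. Mmp10, another stromelysin, was like Mmp3 lowest on the arrays numbered 4, at 7.45 on siBNC2 4 and 6.93 on siCTRL 4, against 7.82 to 8.51 on the others.

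**Figure D4:**
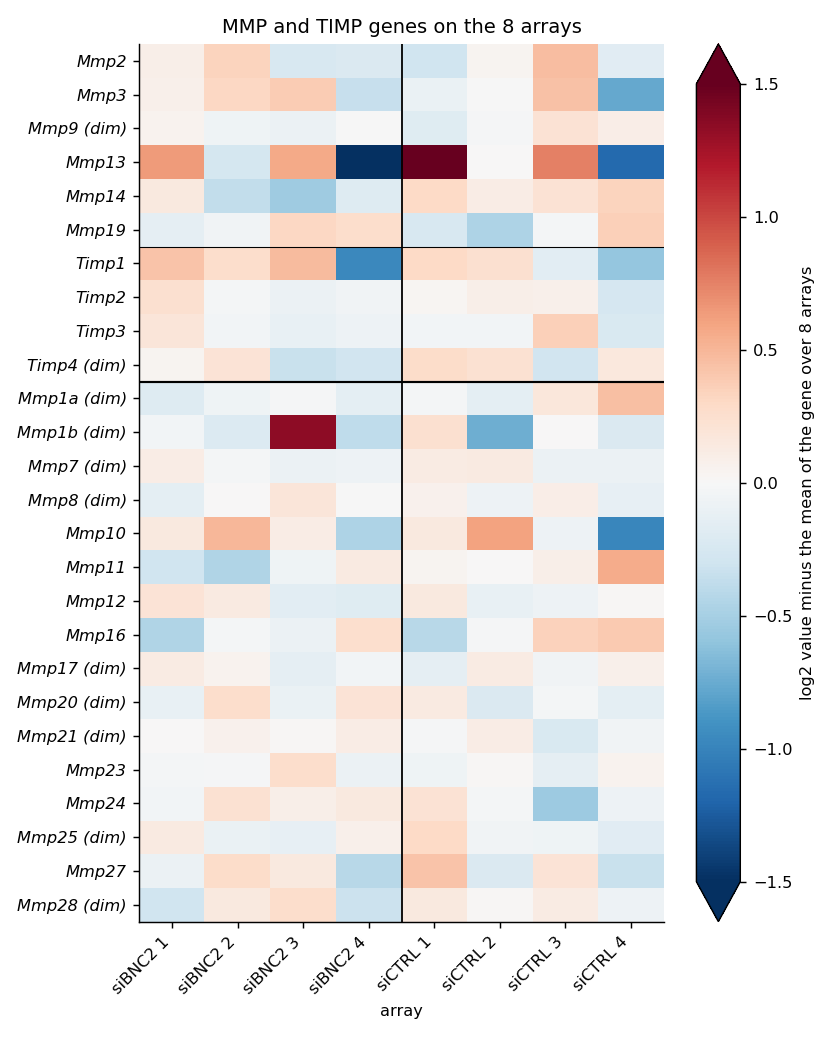
Log2 value of each MMP and TIMP gene (rows) on each array (columns, siBNC2 left of siCTRL) minus the mean of the gene over the 8 arrays, with red above and blue below that mean. Mmp14 is below its mean on 3 of 4 siBNC2 arrays and above it on 4 of 4 siCTRL arrays, and Mmp3, Mmp10, Mmp13, Mmp27 and Timp1 are lowest on both arrays numbered 4.

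Genes that activate MMP precursors were measured beside them. Of 10, 7 were lower and 3 higher in siBNC2, where 48.1% of all genes were lower. The median difference was −0.04 (−0.12 to 0.10 when each array was left out), and 0 were called at either p. Plau, the urokinase that generates plasmin, differed by −0.04 ± 0.24 (SE) and its receptor Plaur by −0.27 ± 0.47. Furin, the convertase that removes the propeptide of MMP14, differed by −0.20 ± 0.20, and Bsg, a surface glycoprotein that induces MMPs, by −0.10 ± 0.20. Leaving out 1 array turned the sign for Plau, Plaur and Bsg. Plat, the tissue plasminogen activator, differed by −0.29 ± 0.18, and the convertase Pcsk5 by 0.20 ± 0.11 at dim values.

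Genes that restrain MMPs or clear them were represented by 7 measured genes. Of these, 5 were lower in siBNC2, where 48.1% of all genes were, the median was −0.08 and 0 passed the adjusted p. At an unadjusted p under 0.05 in limma there was 1, Reck, where 3.19% of all genes were called. Reck, a membrane-anchored inhibitor of several MMPs, read 7.50, 7.39, 6.84 and 7.95 in siBNC2, against 7.87, 7.74, 7.93 and 7.99 in siCTRL. Of the siBNC2 arrays, 3 of 4 lay below all siCTRL arrays, and siBNC2 4 lay within their range. The difference was −0.46 ± 0.21 (SE), with an unadjusted p of 0.0485 and an adjusted p of 1.00 in limma and an exact permutation p of 0.114, and it was −0.27 without siBNC2 3. Lrp1, an endocytic receptor that clears proteases, differed by −0.19 ± 0.21 (SE).

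Of the AP-1 factors, 6 of 7 were measured, 5 had a higher mean in siBNC2, and 0 were called at either p, while Fosl1 was not analysed here. Jun differed by 0.28 ± 0.16 (SE) and Fos, whose sign turned when 1 array was left out, by −0.23 ± 0.43. Over all genes, 48.1% were lower in siBNC2, and 3.19% were called at an unadjusted p under 0.05 in limma. Of 6 substrate genes, 6 were lower in siBNC2 with a median of −0.31, with 0 past the adjusted p. In this list 1 gene, Col3a1, had an unadjusted p under 0.05. This list held matrix genes that the study itself followed, so that its direction is not independent evidence. Col3a1, a fibrillar collagen, had the largest difference of the list at −1.32 ± 0.41 (SE). It read 10.23, 10.53, 11.31 and 12.17 in siBNC2, against 11.90, 11.95, 12.82 and 12.84 in siCTRL, with 1 siBNC2 array inside the siCTRL range and an exact permutation p of 0.0857. The type I collagen chains Col1a1 and Col1a2 differed by −0.25 ± 0.20 and −0.38 ± 0.19, and the basement membrane chains Col4a1 and Col4a2 by −0.36 ± 0.18 and −0.17 ± 0.15. Fn1, the matrix glycoprotein fibronectin, differed by −0.01 ± 0.14, and its sign turned when 1 array was left out. Without both arrays numbered 4 the difference of Col4a2 was −0.04.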

How the data were processed

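The authors processed the arrays with Affymetrix Power Tools (apt-probeset-summarize, no version in the labels) with GC correction, intensity scaling and RMA at core gene level, and deposited log2 values, neither centred nor as counts. RMA quantile-normalizes, so a shift shared by most genes would be removed, and log2 is inferred from RMA. Of 41345 probe sets, those with 1 symbol were averaged per symbol, giving 22180 genes; names came from the platform annotation. Groups of 4 siBNC2 and 4 siCTRL arrays came from the labels.

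Differences were fitted in R 4.3.3 with limma 3.58.1 (group as the only term, two-sided, Benjamini-Hochberg over all genes, threshold 0.05). Single genes were also tested by exact two-sided permutation over arrays. ± is the SD of a group or limma's SE of a difference. The number of arrays limits the precision. A gene is dim if its mean over the 8 arrays is under the 40th percentile, 5.66. The scripts were tested on simulated data. The genes named are the 10 members, Bnc2, preset partners (1 of which is not reported here), those with the smallest p of each list (3 for other MMPs, 2 for the rest), and the 3 genes most like the most variable protease and inhibitor. Outside this rule, Mmp10, Mmp27, Fosl2, Col4a2 and Fn1 were named after their values were seen. Members and lists were chosen with earlier results of these data known. The alternatives were quantile normalization again, array centring, no dim genes, the brightest probe set, all probe sets, a replicate block, a trended robust prior, leaving out each array or both arrays numbered 4, and leaving out members of the balance. No table of proteins was used here, and no genome build is named for the arrays in the sources used here.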

Additional observations from a re-analysis of the deposited data

Results flagged for a closer look

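In 11 of 88 groups of 4 arrays examined, 1 array lay far from the other 3. Chance alone flags about 1 group in 20, but the count is not set against that share, since Trim30d, Ier3 and Txnl4a were picked for their likeness to Mmp13 or Timp1 and Mmp9 minus Timp1 holds the Timp1 value again. In 10 of the 11 it was an array numbered 4, and no explanation was tested. Among the members, Timp1 read 13.06 on siBNC2 4, against 14.29 to 14.50 on the other siBNC2 arrays, and Timp2 read 16.81 on siCTRL 4, against 17.10 to 17.15 on the other siCTRL arrays. Of the within-array differences, Mmp2 minus Timp2 was −6.76 on siBNC2 2, against −7.27 to −7.26 on the rest of its group, and Mmp9 minus Timp1 was −8.34 on siBNC2 4, against −9.87 to −9.64.

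Among the partner genes, Lrp1 was high on siBNC2 4 (13.18, against 12.56 to 12.63 on the other siBNC2 arrays). Mmp11 was high on siCTRL 4 (8.05, against 7.50 to 7.58 on the other siCTRL arrays), as was Plat (12.41, against 11.84 to 11.94). Low values on siBNC2 4 were those of the interferon-induced Ifit3 (7.62, against 8.39 to 8.52) and of the like genes Trim30d (6.25, against 8.86 to 9.39), Ier3 (11.61, against 13.45 to 13.83) and Txnl4a (12.40, against 12.92 to 13.00).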

How the results depend on the processing

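No setting gave a gene or member past the adjusted p. The differences of Mmp13, Mmp14, Mmp19 and Timp4 kept their sign in all settings run for them (Timp4 was not part of the one without dim genes). That of Mmp14 minus Timp2 kept its sign under quantile normalization, centring and leaving out arrays, but its groups overlapped after quantile normalization. The sign turned for Mmp2 after quantile normalization (0.013) and for Timp2 without both arrays numbered 4 (−0.024). Leaving out 1 array turned it for Mmp2 (−0.13 to 0.13), Mmp3 (−0.0063 to 0.40), Mmp9 (−0.12 to 0.0089), Timp1 (−0.080 to 0.44), Timp2 (−0.048 to 0.065) and Timp3 (−0.11 to 0.088), and gave 3 to 9 members lower in siBNC2, with 3 without siCTRL 3. The median of the restraint and clearance genes was −0.25 without dim genes and −0.22 without both arrays numbered 4. With an unadjusted p under 0.05, 708 genes were called, 412 higher and 296 lower in siBNC2, against 340 higher and 364 lower after quantile normalization. There were 312 without dim genes, 1534 of 41345 probe sets and 1099 without siBNC2 4. The same settings were run for Bnc2 and Reck after the data were seen, and both kept their sign. Dim genes such as Mmp9 and Timp4 limit what can be read.

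With the replicate block limma gave 1207 genes at an unadjusted p under 0.05 and 0 past the adjusted p. The adjusted p in that fit was 0.787 for Mmp14 and also 0.787 for Mmp13. The study processed its groups together within rounds of replicates, but the labels do not say that a number marks a round. Same-numbered arrays correlated in their deviations at 0.39, 0.42, −0.0010 and 0.67, in replicate order. The arrays siBNC2 1, siBNC2 2 and siBNC2 4 each correlated best with the siCTRL array of their own number. By contrast, siBNC2 3 correlated best with siCTRL 1 (0.40). Since this did not hold for every number, the numbers were not taken as pairs, and whether they mark rounds was not tested. The block changed no call at the adjusted p.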
